A study of Mus musculus with 6 samples.

Results

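Respiratory chain complexes III, IV and V are built in large part from nuclear genes, and 43 of these genes were followed in qMuSCs, the quiescent stem cells of skeletal muscle, from WT and cD2KO mice. They were picked by symbol in GENCODE M21, as protein-coding genes named Uqcr, Cox4i, Cox5, Cox6, Cox7, Cox8 or Atp5 followed by any letter or number, with Cyc1 and Cycs added. Of 46 identifiers found in this way among 31053, 43 had 10 or more counts summed over the 6 mice. They were 9 genes of complex III, 16 of complex IV, 17 of complex V and Cycs. The 3 others, Cox7b2, Cox8c and a second identifier named Atp5o, had 0 counts in every mouse. All 43 were also among the 11633 genes tested.

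Complex III passes electrons from ubiquinol to cytochrome c, complex IV passes them on to oxygen, and both move protons across the inner mitochondrial membrane. Complex V, the ATP synthase, lets protons flow back through a rotating ring of c subunits and makes ATP in its F1 head. Several subunits of complex IV come as pairs of isoforms, with a ubiquitous form and a form of heart and muscle (Cox6a2, Cox7a1, Cox8b), of lung and other hypoxia-exposed tissue (Cox4i2) or of testis (Cox6b2). Adult muscle fibers hold much of this machinery, whereas quiescent stem cells carry few mitochondria. Not every symbol that matched belongs to a core subunit. Cox7a2l encodes a factor that joins complexes III and IV, and Atp5s encodes a coupling factor that copurifies with complex V.

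The control mice were Pax7nGFP/+;Pax7+/+;Dio2Fl/Fl and are called WT here, as in the study, and the cD2KO mice were Pax7nGFP/+;Pax7-CreERT2/+;Dio2Fl/Fl. Both groups therefore carried floxed Dio2 alleles (the gene of the thyroid hormone activating enzyme D2) and a Pax7-nGFP reporter that marks MuSCs, and both are labelled as treated with tamoxifen. The methods give 3 to 4 months as the age of mice at sorting. The groups differed in Dio2 and in the Pax7-driven Cre, which cannot be told apart, and Cre acts only in cells that express Pax7 when tamoxifen is given. Each group had 3 mice with a library per mouse, named c124, c129 and c130 for WT and fl125, fl126 and fl128 for cD2KO. Libraries held 2184073 to 3897787 counts, so that 3 counts stood for 0.773 to 1.37 CPM (counts scaled to a library of 1000000, with TMM factors).

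Dio2 itself had 21, 5 and 10 counts in WT (c124, c129, c130) and 15, 5 and 1 counts in fl125, fl126 and fl128. The library labelled fl125 thus had the highest Dio2 level, 6.83 CPM, which goes against its label, although counts over the whole gene do not separate the floxed exon. The same library stood apart from the other 5 on the first principal component (45.1% of the variance, fl125 at 72.6 and the others between -50.7 and 7.52). Pax7, the defining marker of the labelled cells, was at 213 to 434 CPM in WT and 316 to 691 CPM in cD2KO libraries. Markers of other cells were present too. The muscle fiber genes Acta1 and Ckm were at 535 to 2131 CPM and 177 to 595 CPM, and the pericyte gene Rgs5 was at 845 to 2330 CPM over the 6 mice. In such bulk libraries, fewer cells of a type and less RNA per cell cannot be told apart. The name fl125 stands below for the library so labelled, and calls that change when it is left out are given both ways.

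Promoter sequence was looked at for motifs of NRF1 and the ERR receptors, factors known to act on respiratory chain genes. In the RefSeq windows of GRCm38.p6, which run from 250 bases before to 50 bases after the start of a gene, 34 windows of 31 of the 43 genes were found. The NRF1 core CGCATGCG, which is its own reverse complement, stood in 8 of the 34 windows (23.5%) and in 1.87% of all 32851 windows. Those 8 windows belonged to Atp5g2, Atp5j, Atp5k, Atp5l, Cox6a1, Cycs, Uqcr11 and Uqcrc1. The ERR motif TCAAGGTCA, searched on both strands, stood in 1 window (2.94%, Atp5g3) and in 0.423% of all windows. The nuclear receptor half-site AGGTCA, which the ERR motif contains, stood in 6 windows (17.6%) and in 16.3% of all windows. The 250 bases before the start are shown for 3 genes that differ in what the counts showed. Atp5g3 holds the ERR motif and had separate groups of mice, Cox6a1 is the ubiquitous partner of the muscle isoform Cox6a2, and Cycs changed little. All 3 lie on the minus strand and are written 5′ to 3′ in the direction of the gene, at chr2:73911327-73911576, chr5:115348959-115349208 and chr6:50566570-50566819, with the motif in capitals.
Atp5g3: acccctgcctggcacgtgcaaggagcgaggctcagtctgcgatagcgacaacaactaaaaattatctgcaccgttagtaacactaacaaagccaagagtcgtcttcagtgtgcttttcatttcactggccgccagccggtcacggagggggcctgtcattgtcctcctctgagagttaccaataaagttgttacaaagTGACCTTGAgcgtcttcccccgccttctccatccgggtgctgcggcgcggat
Cox6a1: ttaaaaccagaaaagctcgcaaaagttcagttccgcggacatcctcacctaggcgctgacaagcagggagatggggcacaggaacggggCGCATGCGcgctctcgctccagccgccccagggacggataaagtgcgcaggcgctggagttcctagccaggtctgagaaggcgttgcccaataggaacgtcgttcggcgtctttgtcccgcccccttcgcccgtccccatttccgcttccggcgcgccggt
Cycs: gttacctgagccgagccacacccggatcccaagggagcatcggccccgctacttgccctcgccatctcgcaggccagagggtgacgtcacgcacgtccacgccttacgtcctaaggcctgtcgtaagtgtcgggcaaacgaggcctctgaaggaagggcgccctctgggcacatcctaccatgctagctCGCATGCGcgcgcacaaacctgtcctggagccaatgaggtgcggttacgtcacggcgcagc
The capitals in Atp5g3 are the reverse complement of the ERR motif, and its first base lies 52 bases before the start. The NRF1 core begins 161 bases before the start in Cox6a1 and 61 in Cycs. In Uqcrc1 it begins at base 32 after the start. These matches describe letters in a window, and binding was not measured in these libraries.

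Most of the 43 genes had somewhat higher levels in cD2KO than in WT qMuSCs, and few of them passed a test. The log2 fold change (cD2KO minus WT) was above 0 in 41 of 43 genes, against 48.1% of all genes tested. The 2 below 0 were Atp5s at -0.39 and Cox6b1 at -0.04. The median was 0.25 over the 43 genes, 0.35 in complex III, 0.34 in complex IV and 0.13 in complex V, beside -0.02 over all genes tested. At an unadjusted p under 0.05 in edgeR's quasi-likelihood test, 5 of the 43 rose (Cyc1, Uqcrc1, Cox4i2, Cox6c and Cox6a2), a share of 11.6% where 5.34% of all genes tested rose. None of the 43 fell, where 6.62% of all genes tested fell. After Benjamini-Hochberg adjustment over the 11633 genes, edgeR called 0 of the 43 at an adjusted p under 0.1, and the lowest adjusted p was 0.191, for Cyc1. The 3 cD2KO mice lay above the 3 WT mice in 5 genes (Cyc1, Uqcr11, Cox5b, Cox6c and Atp5g3), or 11.6%, where 8.05% of all genes tested did so, and below them in 0 genes, where 10.04% of all genes tested did so. These genes work in the same complexes and are not independent of one another.

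In the median and the sum of the 43 genes, the higher levels came from fl126 and fl128 and not from fl125. In some single genes, among them Cyc1, Cox6c and Cox6a2, fl125 also lay above all WT mice. Relative to the mean of the 3 WT mice, the median log2 CPM of the 43 genes was at -0.09 in fl125, 0.23 in fl126 and 0.47 in fl128, and at 0.15, -0.15 and 0.01 in c124, c129 and c130. The summed level of the 43 genes was 14196, 12034 and 13210 CPM in c124, c129 and c130 and 13045, 16333 and 19307 CPM in fl125, fl126 and fl128. The library labelled fl125 lay within the WT range, and fl126 and fl128 lay above it. In 34 of the 43 genes fl128 was the highest of the 6 mice, while it was highest in 18.65% of all genes tested. The lowest mouse was c129 in 17 genes and fl125 in 16. The number of genes that rose was 21 without fl125, where 8.03% of all genes tested rose, and 1 (Cyc1) without fl128, where 3.49% did. It was 2 without fl126 (beside 4.06% of all genes tested), 1 without c129 (beside 4.36%) and 3 without c130 (beside 4.38%). Without fl125, the cD2KO mice lay above WT in 29 of the 43 genes (67.4%, where 17.4% of all genes tested did), and without c124 in 11 (25.6%, where 13.6% did). The log2 fold change stayed above 0 in 30 of 43 genes without fl128 and in 37 of 43 when libraries were scaled to the total count alone.

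**Figure D1:**
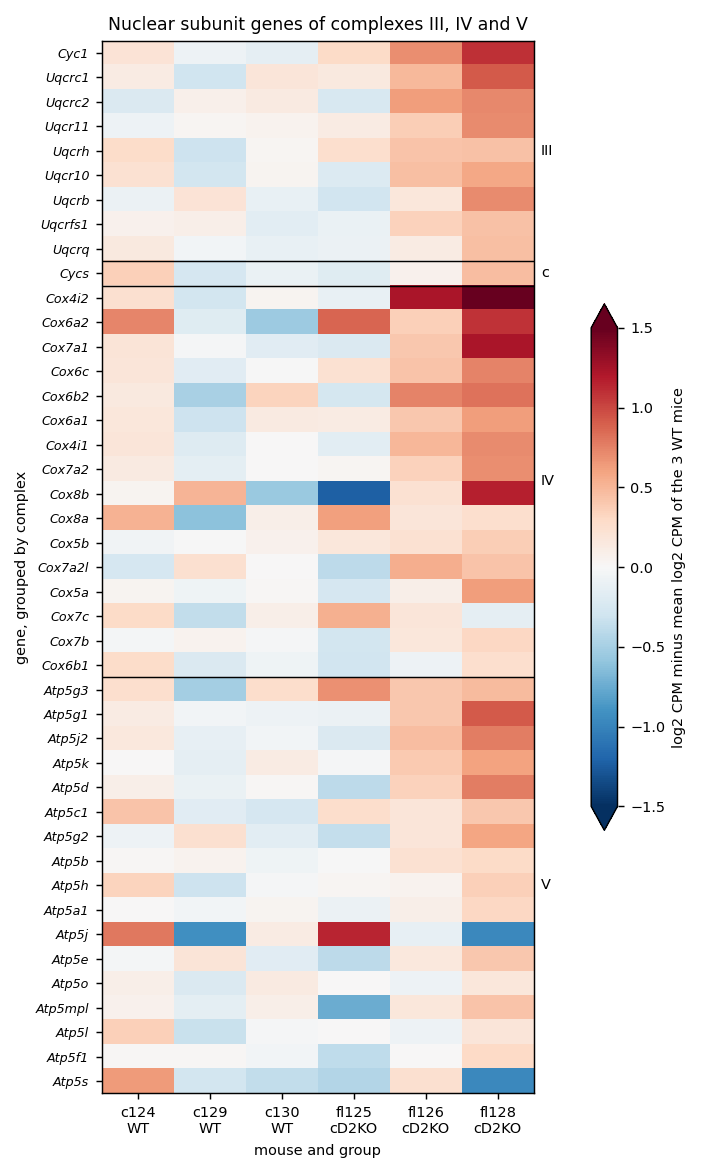
Level of each of the 43 genes in each mouse, as log2 CPM minus the mean log2 CPM of the 3 WT mice. Columns are mice, rows are genes grouped by complex (c, cytochrome c), and colors beyond 1.5 in either direction are clipped. Most rows are darkest red in fl128, while the fl125 column is close to the WT columns.

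In complex III all 9 genes had log2 fold changes above 0, from 0.17 (Uqcrq) to 0.73 (Cyc1). Of them 2 rose (22.2%), where 5.34% of all genes tested rose. Cyc1 (ENSMUSG00000022551, chromosome 15, 76343523 to 76346260, mm10), which encodes the heme-bearing cytochrome c1, was at 153, 125 and 121 CPM in c124, c129 and c130 and at 161, 215 and 284 CPM in fl125, fl126 and fl128. All 3 cD2KO mice lay above all WT mice, fl125 only by a small margin. Its log2 fold change was 0.73 (standard error 0.23, unadjusted p = 0.00628 and adjusted p = 0.191 in edgeR's test). It was the one member whose unadjusted p stayed under 0.05 with every mouse left out in turn and in all 16 alternative fits, where its log2 fold change ranged from 0.50 to 0.94 and its adjusted p from 0.0256 to 0.556.

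Uqcrc1 (chromosome 9, 108936633 to 108949623) encodes a core protein on the matrix side of complex III. Its levels were 134, 100 and 140 CPM in c124, c129 and c130 and 137, 173 and 234 CPM in fl125, fl126 and fl128. The groups overlapped, since fl125 lay between the WT mice. The log2 fold change was 0.54 (standard error 0.23, adjusted p = 0.379 in edgeR's test). The call was lost without c124, c129, fl126 or fl128, with log2 fold changes of 0.59, 0.43, 0.57 and 0.31.

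The small subunits of complex III did not pass edgeR's test with all 6 mice. Uqcr11 was at 206 to 225 CPM in WT and at 237, 280 and 355 CPM in fl125, fl126 and fl128. Its groups did not overlap, and the log2 fold change was 0.42 (standard error 0.20, adjusted p = 0.443 in edgeR's test). DESeq2 called Uqcr11, as did edgeR without a minimum on expression and, at 0.58, without fl125. Uqcrh, the hinge protein that helps cytochrome c to dock, was at 404 to 604 CPM in WT and 593 to 679 CPM in cD2KO, and Uqcr10 at 315 to 447 CPM and 330 to 571 CPM. Both overlapped between the groups and rose without fl125, at 0.45 for Uqcrh and 0.54 for Uqcr10, and 2 annotated pseudogenes of Uqcrh make its counts uncertain. The other core protein, Uqcrc2, and the Rieske iron-sulfur protein, Uqcrfs1, had log2 fold changes of 0.42 and 0.25 with overlapping groups. Both rose without fl125, as did Uqcrb, which had a log2 fold change of 0.25 with all mice.

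**Figure D2:**
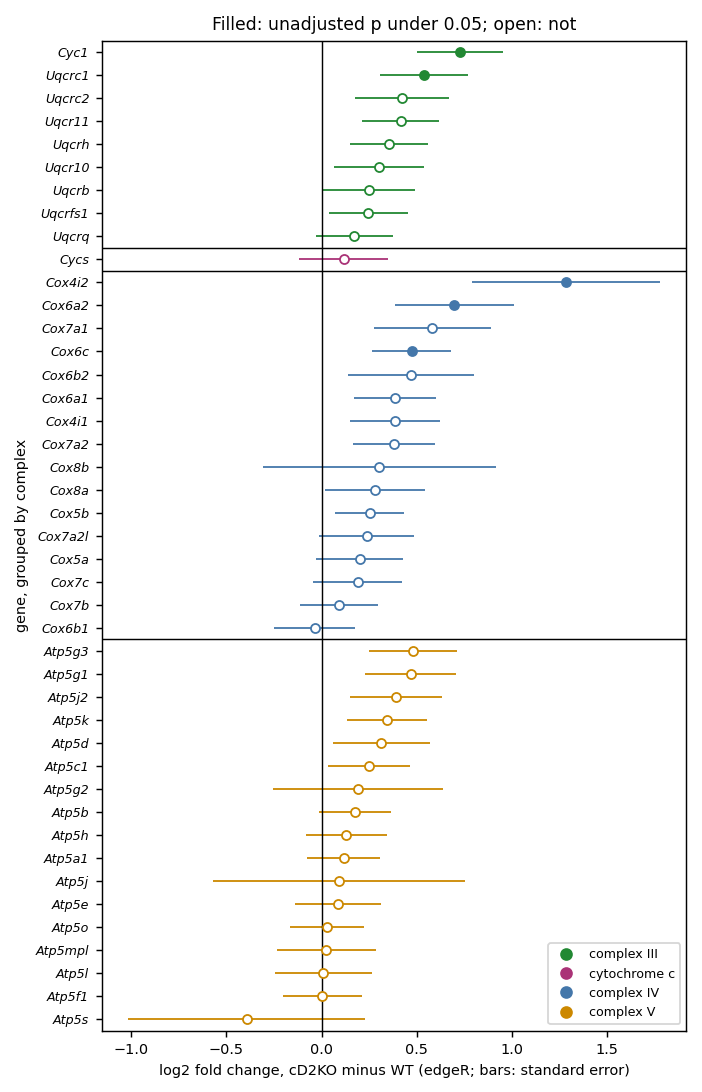
Log2 fold change of each of the 43 genes, cD2KO minus WT, from edgeR, with bars for the standard error and lines between the complexes. Filled points are the 5 genes with an unadjusted p under 0.05. All points but Atp5s and Cox6b1 lie above 0, and Cox4i2 at 1.28 lies farthest out with a standard error of 0.49.

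Cycs, the mobile carrier between complexes III and IV, did not follow Cyc1. It was at 86.5, 56.8 and 63.4 CPM in c124, c129 and c130 and at 59.7, 70.9 and 93.5 CPM in fl125, fl126 and fl128. The groups overlapped over most of their range, and its log2 fold change, 0.12 (standard error 0.24, adjusted p = 0.905 in edgeR's test), turned to -0.08 without fl128. Cycs also has 2 annotated pseudogenes that could take or add reads.

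In complex IV 15 of 16 genes had log2 fold changes above 0. Of the 16 genes 3 rose (18.75%), namely Cox4i2, Cox6c and Cox6a2, where 5.34% of all genes tested rose. Cox6c, a small ubiquitous subunit, had the highest CPM of the 43 genes. It was at 1081, 844 and 948 CPM in c124, c129 and c130 and at 1118, 1277 and 1592 CPM in fl125, fl126 and fl128. The groups did not overlap, with a narrow gap between c124 and fl125. Its log2 fold change was 0.47 (standard error 0.21, adjusted p = 0.393 in edgeR's test). The call was lost without c129, c130, fl126 or fl128, at 0.42, 0.50, 0.50 and 0.32. Cox6c overlaps Vps13b on the opposite strand, and since the use of strand is not given in the sources used here, its reads cannot be told apart from those of Vps13b where the genes overlap.

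The ubiquitous members of the isoform pairs did not pass edgeR's test with all 6 mice. Cox4i1, which takes part in the regulation of complex IV by ATP, was at 499 to 648 CPM in WT and at 511, 808 and 930 CPM in fl125, fl126 and fl128. Cox6a1 was at 580 to 806 CPM in WT and 783 to 1108 CPM in cD2KO, and Cox7a2 at 412 to 502 CPM and 467 to 742 CPM. In all 3 genes fl125 lay among the WT mice and fl126 and fl128 above them. With all mice their log2 fold changes were 0.39, 0.39 and 0.38, and without fl125 all 3 rose, at 0.64, 0.54 and 0.57 (unadjusted p = 0.00627, 0.0213 and 0.0122 in edgeR's test). Cox8a was at 135 to 298 CPM in WT and 234 to 316 CPM in cD2KO, and here fl125 was the highest mouse. Cox6b1 was at 202 to 282 CPM in WT and 192 to 277 CPM in cD2KO, a log2 fold change of -0.04 that turned to 0.11 without c124 and 0.12 without fl125. Cox4i1 overlaps Gm20388 on its own strand and Emc8 on the other. Cox7a2l and the tissue isoform Cox6b2 also rose without fl125. With all mice their log2 fold changes were 0.24 and 0.47 (adjusted p = 0.772 and 0.631 in edgeR's test). Without fl125 that of Cox6b2 was 0.77 (unadjusted p = 0.02035 in edgeR's test).

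Among tissue isoforms, Cox4i2 showed the widest difference of the 43 genes. It lies on chromosome 2 from 152754173 to 152765037. Its levels were 93.2, 65.3 and 81.1 CPM in c124, c129 and c130 and 73.3, 184 and 326 CPM in fl125, fl126 and fl128. Both fl126 and fl128 lay far above WT, and fl125 lay inside the WT range. The log2 fold change was 1.28 (standard error 0.49, adjusted p = 0.380 in edgeR's test). It was 1.71 without fl125, where the unadjusted p of edgeR was 5.86e-06, and 0.69 without fl128. The call was lost with any mouse but fl125 left out, with log2 fold changes of 1.41, 1.19 and 1.33 without c124, c129 and c130 and 1.32 without fl126.

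Cox4i2 is known to be enriched in the mural cells of small vessels, so mural markers are set beside it. The 12 mural markers summed to 9850, 5855 and 7357 CPM in c124, c129 and c130 and 11812, 12679 and 17436 CPM in fl125, fl126 and fl128. Of the 12 markers 6 rose, where 5.34% of all genes tested rose. Those 6 were Acta2, Myh11, Tagln, Cnn1, Mcam and Des, most of them genes of the smooth muscle contractile apparatus. Acta2 was at 1572 to 3983 CPM in WT and at 4443, 5642 and 7938 CPM in fl125, fl126 and fl128. The other 6 did not pass the test. Rgs5 was at 2160, 1159 and 1075 CPM in WT and at 2330, 1230 and 845 CPM in fl125, fl126 and fl128, with a log2 fold change of 0.0025. Among the rest, Kcnj8, Abcc9 and Pdgfrb were at -0.36, -0.23 and -0.06, and Cspg4 and Higd1b were at 0.25 and 0.34. Rgs5 was thus lowest in fl128, where Cox4i2 was highest. None of the 12 markers was at 0 in any mouse. The part of these cells in the Cox4i2 result was not tested.

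The 3 isoforms of heart and muscle differed among themselves. Cox6a2 (chromosome 7, 128205435 to 128206387) was at 154, 81.7 and 63.7 CPM in c124, c129 and c130 and at 171, 119 and 197 CPM in fl125, fl126 and fl128. The groups overlapped through c124, and fl125 was among the higher mice here. The log2 fold change was 0.70 (standard error 0.31, adjusted p = 0.409 in edgeR's test), and the call was lost without c129, c130, fl125 or fl128, at 0.59, 0.48, 0.70 and 0.53. Without c124 it was 1.16. Cox6a2 overlaps Itgad on the opposite strand. Cox7a1 was at 98.4, 85.0 and 76.2 CPM in WT and at 73.8, 114 and 201 CPM in fl125, fl126 and fl128, with fl125 the lowest of the 6 mice. Its log2 fold change was 0.58 (standard error 0.31, adjusted p = 0.494 in edgeR's test). It was 0.12 without fl128, and without fl125 Cox7a1 rose at 0.90 (unadjusted p = 0.00170 in edgeR's test). Cox8b was at 87.0, 120 and 57.4 CPM in WT and at 36.0, 98.7 and 190 CPM in fl125, fl126 and fl128. It spread more widely within each group than between them, and its log2 fold change, 0.30 (standard error 0.61, adjusted p = 0.908 in edgeR's test), turned to -0.38 without fl128. Without fl125 Cox8b rose at 0.75 (unadjusted p = 0.0419 in edgeR's test).

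Markers of muscle fibers moved with these isoforms in part. The 18 fiber markers summed to 5272, 6874 and 3414 CPM in c124, c129 and c130 and to 5841, 6600 and 10790 CPM in fl125, fl126 and fl128. All 18 had log2 fold changes above 0, with a median of 0.52. Of them 3 rose (Myh2, Myl1 and Tcap), or 16.7%, where 5.34% of all genes tested rose. None of the 18 was at 0 in any mouse. Within WT, Cox8b and the fiber markers were both highest in c129 and lowest in c130, and Cox7a1, Cox8b and the fiber markers were all highest in fl128. By contrast, fl125 had a fiber marker sum within the WT range and the lowest Cox7a1 and Cox8b of all mice. The part of fiber RNA in these results was not tested.

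**Figure D3:**
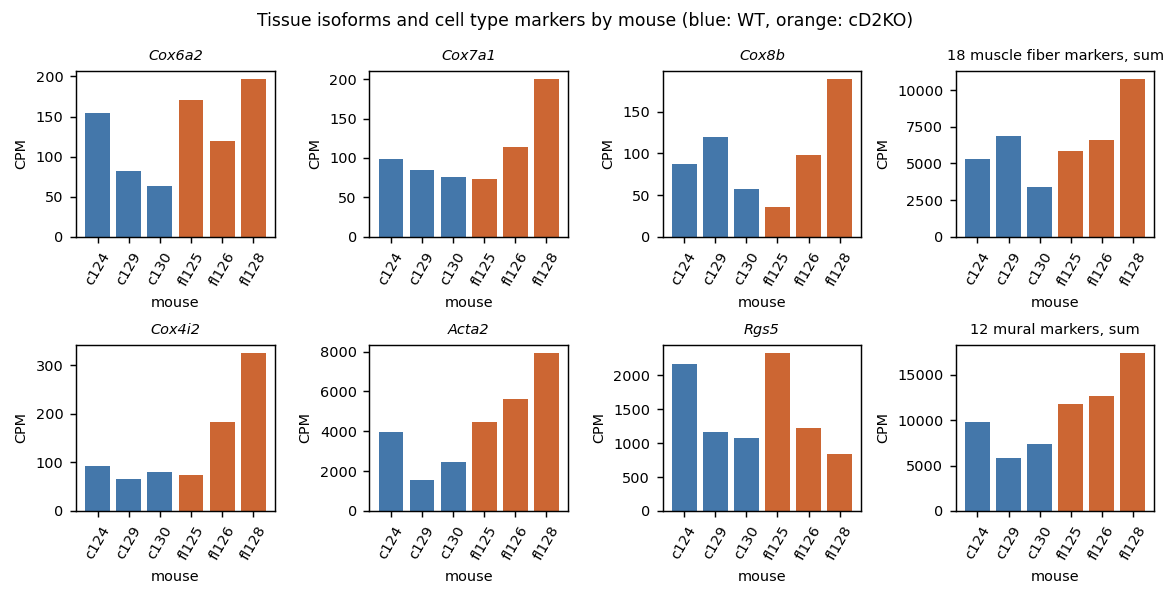
Levels in CPM by mouse, with blue bars for WT and orange bars for cD2KO, for the muscle isoforms Cox6a2, Cox7a1 and Cox8b beside the summed fiber markers (upper row), and for Cox4i2 beside Acta2, Rgs5 and the summed mural markers (lower row). Cox4i2 and Acta2 reach their highest bar in fl128, where Rgs5 has its lowest.

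Whether the isoform mix differed was tested on the log2 ratio of the tissue isoform to the ubiquitous isoform within each library, with two-sided exact permutation tests over 5 pairs. With 3 mice against 3 the smallest p is 0.1, so no pair could pass 0.05. The ratio of Cox4i2 to Cox4i1 was -2.79, -2.92 and -2.82 in c124, c129 and c130 and -2.79, -2.13 and -1.51 in fl125, fl126 and fl128. The WT mice and fl125 were nearly alike, and fl126 and fl128 stood above them. The means differed by 0.70 (exact permutation p = 0.2, adjusted p = 0.5 over the 5 pairs). The other 4 pairs overlapped as well. The difference was 0.46 for Cox6b2 and Cox6b1 (exact permutation p = 0.2, adjusted p = 0.5), 0.38 for Cox6a2 and Cox6a1 (exact permutation p = 0.5, adjusted p = 0.833), 0.10 for Cox7a1 and Cox7a2 and -0.29 for Cox8b and Cox8a (both exact permutation p = 0.9, adjusted p = 0.9). The sign of the Cox7a1 pair turned without fl128, at -0.10, and that of the Cox8b pair without c129, at 0.28, or without fl125, at 0.48. The difference of the Cox6a2 pair was 0.04 without c130, 0.20 without fl125, 0.66 without c124 and 0.60 without fl126. That of the Cox4i2 pair was 0.38 without fl128 and 1.02 without fl125 (exact permutation p = 0.2 in the latter). With a mouse left out, 0.2 is the smallest p this test can give.

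On a scale of CPM per kb of exon, Cox8b made up 16.4% of Cox8b and Cox8a together in fl125 and 60.6% in c129. This scale divides by the joined length of all annotated exons of a gene, which can exceed that of its main transcript. Shares between 2 genes are therefore approximate. The share of Cox7a1 in its pair was 21.8% to 32.3% over the 6 mice, and that of Cox6a2 7.70% to 18.4%. Cox4i2 took 20.5% to 22.0% of its pair in WT and fl125, 30.9% in fl126 and 40.8% in fl128. Cox6b2, whose protein is best known from sperm, took 5.03% to 10.2%. Per kb, the ubiquitous isoform was the higher of the pair in all mice but c129 and fl128, where Cox8b was. By counts, which do not divide by length, Cox8b took 47.2% and 43.6% of its pair in those mice, and its exon length of 360 bases is the shortest of the 43 genes.

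**Figure D4:**
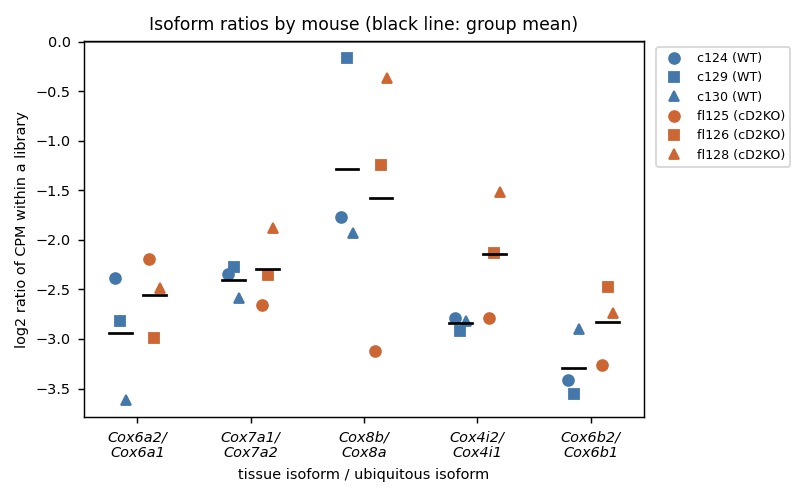
Log2 ratio of CPM of the tissue isoform to the ubiquitous isoform within each library, for 5 pairs, with WT mice in blue, cD2KO mice in orange and a black line at each group mean. In every pair the groups overlap, and the Cox8b pair has the widest spread among mice, from -3.12 in fl125 to -0.16 in c129.

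Complex V had the lowest median of the 3 complexes. All but Atp5s of its 17 genes had log2 fold changes above 0, with a highest value of 0.48 (Atp5g3). At an unadjusted p under 0.05 in edgeR, 0 rose and 0 fell, where 5.34% and 6.62% of all genes tested did. The median of 0.13 was 0.02 without fl128 and 0.30 without fl125. With scaling to the total count it was 0.07. DESeq2 and limma voom each called 1 gene of the complex, Atp5g3, where 5.25% and 5.34% of all genes tested rose. Without fl125 edgeR called 4, Atp5d, Atp5g1, Atp5j2 and Atp5k, where 8.03% of all genes tested rose. By part of the enzyme, the median log2 fold change was 0.18 over the 5 genes of the F1 head and its central shaft (Atp5a1, Atp5b, Atp5c1, Atp5d and Atp5e), 0.47 over the 3 genes of the c ring, 0.06 over 4 genes of the peripheral stalk and 0.18 over 4 small Fo subunits.

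Of the 3 genes that encode the same c subunit protein, Atp5g3 had separate groups. It was at 656, 385 and 658 CPM in c124, c129 and c130 and at 881, 730 and 762 CPM in fl125, fl126 and fl128. All cD2KO mice lay above WT and fl125 was the highest, which sets Atp5g3 apart from the genes that were highest in fl128. Its log2 fold change was 0.48 (standard error 0.23, adjusted p = 0.436 in edgeR's test). Atp5g1 had a log2 fold change of 0.47 with fl125 the lowest mouse, and Atp5g2 stayed at 6.38 to 12.3 CPM in all mice, some way above the level of 3 counts.

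In the F1 head, the catalytic subunit gene Atp5b and its partner Atp5a1 had log2 fold changes of 0.18 and 0.12 with overlapping groups. Atp5e, the small epsilon subunit, was at 508 to 652 CPM in WT and 433 to 753 CPM in cD2KO, a log2 fold change of 0.09 that turned to -0.10 without fl128. Of the small subunits, Atp5k was at 788 to 942 CPM in WT and 853 to 1309 CPM in cD2KO (log2 fold change 0.34, adjusted p = 0.563 in edgeR's test, and 0.53 without fl125). Atp5mpl was at 450 to 529 CPM in WT and at 298, 561 and 670 CPM in fl125, fl126 and fl128. Its log2 fold change of 0.02 turned to -0.05 with scaling to the total count and to -0.22 without fl128. Atp5s was at 3.83 to 7.73 CPM in WT and 2.53 to 5.85 CPM in cD2KO, and its log2 fold change, -0.39 (standard error 0.62, adjusted p = 0.870 in edgeR's test), turned to 0.02 without c124. It had 8 to 30 counts per library.

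A few genes ran against the common pattern among mice. Only Cox7c, Cox8a, Atp5g3 and Atp5j were highest in fl125, and Cox7c and Atp5j were picked out after their values were seen. Atp5j, which encodes coupling factor 6, was at 97.9, 30.1 and 62.0 CPM in c124, c129 and c130 and at 125, 51.9 and 29.1 CPM in fl125, fl126 and fl128. Its lowest mouse was fl128, the highest mouse of 34 other genes, and its spread within each group exceeded the difference between them. Atp5j overlaps Gabpa on the opposite strand.

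Between genes, levels were compared as CPM per kb of exon, on exon lengths of GENCODE M21. These lengths join all annotated exons, so a gene with many annotated transcripts can read too low, and the order is approximate. Atp5l, with a length of 6443 bases, was at 6.08 CPM per kb in WT. Atp5k has 1 annotated pseudogene and Atp5l has 2, which makes their counts uncertain. In WT mice Atp5k was highest at 1407 CPM per kb, followed by Cox6a1 at 1032 and Uqcr10 at 659, and Atp5s was lowest at 2.56 CPM per kb. Cox7a2 at 485, Atp5mpl at 412 and Uqcrh at 409 came next below Uqcr10. In cD2KO mice the first 3 were again Atp5k, Cox6a1 and Uqcr10, at 1784, 1350 and 812 CPM per kb. Of the 42 pairs of neighbors in the WT order, 32 had ranges over the 3 mice that overlapped and 10 did not. The subunits of one complex are present in equal numbers, apart from the c ring and the F1 head. In complexes III and V, levels here nevertheless spread over more than an order of magnitude. In complex IV they did so only with tissue isoforms such as Cox6b2 counted, and its ubiquitous subunits spread over less than that. How reads are distributed along transcripts is not given in the sources used here, and a library of transcript ends would raise short genes on this scale.

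**Figure D5:**
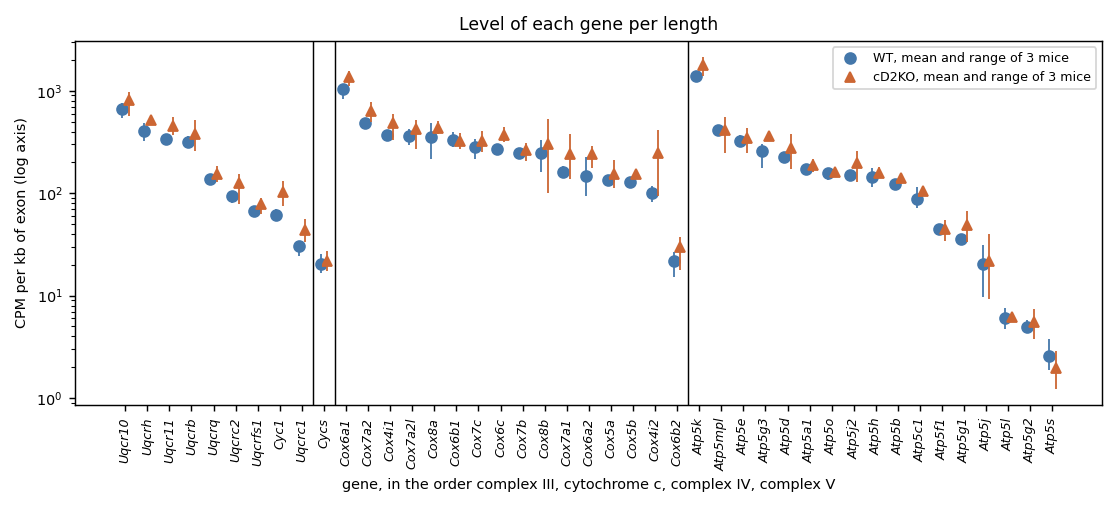
Level of each of the 43 genes in CPM per kb of exon on a log axis, as the mean of 3 mice with a line from the lowest to the highest mouse, for WT (blue circles) and cD2KO (orange triangles). Within each complex genes run from high to low in WT, from 1407 CPM per kb for Atp5k down to 2.56 for Atp5s.

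The partners of these genes on mitochondrial DNA did not pass the test. The share of all counts on mitochondrially encoded genes was 9.09% to 15.8% in WT and 12.65% to 13.5% in cD2KO. Of 12 such genes tested, 1 rose, mt-Nd6 of complex I, or 8.33%, where 5.34% of all genes tested rose. The median log2 fold change over the 12 was 0.21. The cytochrome b gene mt-Cytb was at 29000, 16940 and 19155 CPM in c124, c129 and c130 and at 22897, 24109 and 24460 CPM in fl125, fl126 and fl128. The catalytic core genes of complex IV, mt-Co1, mt-Co2 and mt-Co3, had log2 fold changes of 0.15, 0.34 and 0.31 (adjusted p = 0.841, 0.776 and 0.735 in edgeR's test). The complex V genes mt-Atp6 and mt-Atp8 had log2 fold changes of 0.35 and 1.25 (adjusted p = 0.712 and 0.503 in edgeR's test), and mt-Atp8 was at 2.06 to 10.1 CPM. The sum of mt-Co1 to mt-Co3 over the sum of the 16 nuclear genes of complex IV was 0.628, 0.601 and 0.559 in c124, c129 and c130 and 0.591, 0.541 and 0.470 in fl125, fl126 and fl128. That ratio was lowest in fl128, where the nuclear sum was highest, and the groups overlapped. It rests mostly on mt-Co1, at a WT mean of 2777 CPM beside 96.7 CPM for mt-Co2 and 222.5 CPM for mt-Co3. The ratio for complex III was also lowest in fl128, at 7.14 beside 8.17 to 12.2 in WT. For complex V it was 0.0296 in fl128, within the WT range of 0.0165 to 0.0385.

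Other genes of the pathway were read in lists of known members. Over all genes tested, 5.34% rose and 6.62% fell. Of 36 nuclear genes of complex I, 4 rose (Ndufa11, Ndufa5, Ndufb7 and Ndufv1), or 11.1%, and 0 fell. Their median log2 fold change over the 36 was 0.22, and 34 of 36 were above 0. Of 3 genes of complex II tested, 1 rose, Sdhc at 0.59. All 3 had cD2KO mice above WT mice, where 8.05% of all genes tested did so. Among assembly factors, 0 of 7 for complex III, 1 of 23 for complex IV (Cox10, which makes heme O) and 1 of 5 for complex V (Fmc1) rose, and 0 fell. The 7 for complex III include Cox7a2l, which is also one of the 43 genes. Of 14 tested regulators of mitochondrial biogenesis, 0 rose and 0 fell in edgeR's test at an unadjusted p under 0.05, with a median of -0.12. These included Ppargc1a at -0.13, Nrf1 at 0.08 and Esrra at 0.15.

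Markers of other cells moved with the groups. Over all genes tested, 6.62% fell and 5.34% rose. Of 12 immune markers 3 fell and 0 rose, with sums of 4240 to 7956 CPM in WT and 222 to 2847 CPM in cD2KO, lowest in fl125. All 12 had log2 fold changes below 0, with a median of -1.79. In 10 of the 12 all cD2KO mice lay below all WT mice, where 10.04% of all genes tested did so. Of 11 endothelial markers tested 6 fell, with sums of 306 to 433 CPM in WT and 252 to 316 CPM in cD2KO. Of 8 fibroadipogenic markers 2 fell, and of 12 muscle stem cell markers 3 rose (Myf5, Itga7 and Cdh15). No direct measure of cell makeup was analysed here, and the part of these cells in the levels of respiratory chain genes was not tested. Nothing in the labels states that the 6 libraries were made in separate batches.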

How the data were processed

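qMuSCs of 3 WT and 3 cD2KO mice had been sorted for GFP, and RNA of each mouse was sequenced separately. The authors deposited raw counts of reads per gene as whole numbers, without normalization. The submitters' processing notes name bcl2fastq, STAR 2.6.0a, HTSeq 0.9.1 and mm10. Gene models, strand setting and duplicate removal are not given in the sources used here. Levels of 3 counts cover counting error only, while the standard errors of edgeR also include the spread between mice.

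Of 31053 identifiers, 31011 were matched to GENCODE M21. The 11633 genes whose counts, normalized with DESeq2, averaged over 10 were tested with edgeR 4.0.16 in R 4.3.3 (TMM factors, robust quasi-likelihood fit, all 6 mice, no covariate), with Benjamini-Hochberg adjustment over all of them. A gene is said to have risen or fallen at an unadjusted p under 0.05, the line the study draws. Standard errors were derived from the fold change and the F statistic. Isoform ratios used a prior of 0.5 CPM and exact permutation tests in scipy 1.17.1. The procedure was tested on simulated data first. Litters and batches are not given in the sources used here, and p-values measure the spread between these mice.

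Genes named with values by rule were the members of isoform pairs, those with an unadjusted p under 0.05, the smallest p in each direction and the 3 highest levels per kb of each complex, Cyc1, Cycs and the mitochondrially encoded partners. Some other members, among them Uqcrc2, Atp5g1, Atp5b and Atp5j, were given values outside this rule. The genes and lists were chosen with earlier results of these data known. Alternatives were DESeq2 1.42.0, limma voom 3.58.1, other scalings and filters, non-robust estimation, other thresholds and leaving out each mouse in turn.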

Additional observations from a re-analysis of the deposited data

How the results depend on the processing

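The number of genes that rose, 5, was 2 with scaling to the total count (where 3.77% of all genes tested rose), 10 without a minimum on expression (5.21%) and 3 with a minimum mean of 50 (5.86%), where 41 of the 43 genes were tested. In edgeR's main fit, with all 6 mice, it was 0 at an adjusted p under 0.05 or under 0.1. Some of the 16 alternative fits gave lower adjusted p for single genes. The lowest was 0.0062 for Cox4i2, 0.0256 for Cyc1, 0.0482 for Cox6a2, 0.0593 for Cox7a1 and 0.0795 for Uqcrc1. The highest for these genes was 0.718, 0.556, 0.753, 0.930 and 0.742. The other members named by the rule given above stayed above 0.1 in every fit. This range was not taken for members outside that rule. Leaving out 1 mouse at a time gave 1 to 21 genes that rose at an unadjusted p under 0.05. The number with all cD2KO mice above WT ranged from 5 to 29 and that with all below from 0 to 1. No alternative that was run gave a gene that fell at an unadjusted p under 0.05. Differences of the isoform ratios turned in sign with a mouse left out for Cox7a1 over Cox7a2 (-0.10 to 0.28) and Cox8b over Cox8a (-0.89 to 0.48). Of log2 fold changes, that of Atp5mpl, 0.02, became -0.051 with scaling to the total count and with limma voom and -0.011 with a minimum mean of 50. With a mouse left out it ran from -0.22 to 0.33, that of Atp5e from -0.097 to 0.32, Cycs from -0.080 to 0.32, Cox8b from -0.38 to 0.75, Atp5s from -0.78 to 0.018 and Cox6b1 from -0.19 to 0.12. The cause was not tested. The median log2 fold changes kept their sign in all 16 alternatives, from 0.25 to 0.54 in complex III, 0.20 to 0.56 in complex IV and 0.02 to 0.30 in complex V. No paired analysis was possible because the groups hold different mice, no label links a WT to a cD2KO mouse, and replicate numbers were given in accession order. With 3 mice in each group and a biological coefficient of variation of 28.4%, small differences in single genes could be missed, and a p that misses the threshold does not show that levels were alike.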
